A study of Mus musculus with 32 samples.

Results

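V(D)J recombination and the surrogate light chain are represented here by 7 genes, chosen by symbol from the 24421 rows of the raw gene count table: Rag1, Rag2, Dntt, Vpreb1, Vpreb2, Vpreb3 and Igll1. RNA-seq was performed on 8 bone marrow fractions of female C57BL/6 mice, and each fraction at each age is held by 2 of the 32 libraries. Young mice were 10 weeks old and Aged mice were 20 months old, and no genotype or treatment separated them. The fractions were HSC (Lin- Sca-1+ c-Kit+ Flt3- CD34- CD150+ CD48-), MPP1 (CD34+ CD150+ CD48-), MPP2 (CD150+ CD48+), MPP3 (CD150- CD48+), the lymphoid-primed MPP4 (Flt3+), GMP (Lin- Sca-1- c-Kit+ FcgR+ CD34+), MEP (Lin- Sca-1- c-Kit+ FcgR- CD34-) and CLP, the common lymphoid progenitor (Lin- IL-7R+ with low Sca-1 and low c-Kit). Marrow of each age was pooled and sorted in duplicate, so the p-values below measure a spread between duplicate libraries, which may be technical. Unless stated otherwise, that spread was estimated over all 32 libraries and not only over those compared.

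Lymphocytes assemble their antigen receptor genes by joining V, D and J segments. The proteins of Rag1 and Rag2 form the recombinase that cuts the DNA at recombination signal sequences, and Dntt encodes terminal deoxynucleotidyl transferase (TdT), which adds bases without a template at the junctions. In a B cell precursor that has made a heavy chain but no light chain, VpreB (Vpreb1 and Vpreb2) and lambda5 (Igll1) together form the surrogate light chain, which pairs with the heavy chain in the pre-B cell receptor. Vpreb3 encodes a related protein of the endoplasmic reticulum that binds immunoglobulin chains during their assembly. In the marrow these genes are known for their use in lymphoid-primed progenitors and early B lineage cells.

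The 7 genes lie on 4 chromosomes of the mouse genome (GRCm38, the mm10 build the authors aligned to; positions from GENCODE). Rag1 (ENSMUSG00000061311) was at chr2:101638282-101649501 on the minus strand and Rag2 (ENSMUSG00000032864) at chr2:101624718-101632529 on the plus strand, with 5752 bases and no other gene between them. Both lie inside the span of B230118H07Rik, a gene on the minus strand. Dntt (ENSMUSG00000025014) was at chr19:41029275-41059525 and Vpreb3 (ENSMUSG00000000903) at chr10:75943057-75949657, both on the plus strand. Vpreb3 is overlapped by Gm16221, a processed pseudogene on the other strand. Igll1 (ENSMUSG00000075370) was at chr16:16860671-16863985 and Vpreb1 (ENSMUSG00000059305) at chr16:16868403-16870843, both on the minus strand and 4417 bases apart, with Vpreb1 overlapped by Top3b on the other strand. Vpreb2 (ENSMUSG00000059280) was 1109584 bases further on, at chr16:17980428-17981273 on the plus strand, with 60 genes between it and Vpreb1.

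The coding sequences of Vpreb1 and Vpreb2 were both 426 bases long and differed at 9 positions (97.9% identity). Of the 367 windows of 60 bases, the read length of the study, in the coding sequence of Vpreb1, 142 (38.7%) also occurred in Vpreb2, so the counts of these 2 genes are uncertain against each other. The stretch with most of the differences, coding positions 268 to 387, is printed to show how few bases separate them, with the 6 differing bases in capitals.
Vpreb1: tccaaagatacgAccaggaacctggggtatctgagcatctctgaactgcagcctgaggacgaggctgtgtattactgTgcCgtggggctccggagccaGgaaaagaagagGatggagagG
Vpreb2: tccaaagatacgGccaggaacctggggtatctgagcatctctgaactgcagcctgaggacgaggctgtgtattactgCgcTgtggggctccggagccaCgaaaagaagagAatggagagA
Vpreb1 shared no such window with Vpreb3 or Igll1, and Rag1 shared none with Rag2.

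The promoters of 4 of the genes are printed: Igll1, Vpreb1 and Vpreb3, which were called lower in aged CLPs, and Dntt, which was not. Whether these sequences bear on any difference with age was not tested. Each is the 250 bases before the RefSeq transcription start (GRCm38.p6), where 7 of 7 genes had an entry. The intervals are chr16:16863986-16864235 (minus strand) for Igll1, chr16:16869256-16869505 (minus strand) for Vpreb1, chr10:75948050-75948299 (plus strand) for Vpreb3 and chr19:41029025-41029274 (plus strand) for Dntt. Part of the Vpreb1 interval is also an exon of a longer non-coding transcript of that gene in GENCODE. Capitals mark matches, on either strand, to 4 motifs that were chosen after the sequences were read: the E box (CAGCTG or CAGGTG), the Ikaros core (GGGAA), the Runx core (TGTGGT) and the octamer (ATTTGCAT).
Igll1: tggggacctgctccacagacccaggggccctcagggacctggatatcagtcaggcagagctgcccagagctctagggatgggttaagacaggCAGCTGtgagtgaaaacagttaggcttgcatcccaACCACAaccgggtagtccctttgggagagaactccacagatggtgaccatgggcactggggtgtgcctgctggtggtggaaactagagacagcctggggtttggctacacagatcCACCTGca
Vpreb1: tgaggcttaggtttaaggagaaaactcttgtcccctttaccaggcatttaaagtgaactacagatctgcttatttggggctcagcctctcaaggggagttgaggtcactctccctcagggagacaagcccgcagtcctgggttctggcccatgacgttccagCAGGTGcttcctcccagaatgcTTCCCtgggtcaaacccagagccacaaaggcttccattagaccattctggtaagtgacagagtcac
Vpreb3: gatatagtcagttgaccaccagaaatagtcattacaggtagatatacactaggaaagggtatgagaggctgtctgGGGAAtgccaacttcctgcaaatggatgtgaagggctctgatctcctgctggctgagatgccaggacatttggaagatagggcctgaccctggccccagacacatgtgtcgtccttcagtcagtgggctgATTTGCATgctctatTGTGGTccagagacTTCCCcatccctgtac
Dntt: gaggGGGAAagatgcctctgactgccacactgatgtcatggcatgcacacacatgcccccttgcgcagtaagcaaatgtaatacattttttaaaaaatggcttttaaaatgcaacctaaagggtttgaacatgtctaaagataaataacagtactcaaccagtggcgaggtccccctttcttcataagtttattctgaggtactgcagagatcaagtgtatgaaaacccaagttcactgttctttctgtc
The octamer was found in 1.60% of 32851 promoters of this length and, among the 7 genes, in Vpreb3 alone. An EBF1 site and a TATA box were also searched for, and neither had a match in any of the 7 genes. Of all promoters, 0.779% held the EBF1 site and 12.4% the TATA box. The E box was in 27.7% of all promoters, the Runx core in 14.0% and the Ikaros core in 56.2%. These matches are descriptions of the letters in the window and not of binding.

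The libraries held 11237384 to 17723245 counts each, and all 7 genes passed the filter on low counts that left 14154 genes to test. Levels are given as CPM, the gene's count scaled to a common library total. Between genes, levels are compared only as CPM per kilobase of transcript. Differences between groups are log2 fold changes with their standard error (SE) from edgeR's quasi-likelihood test on the raw counts, called at an adjusted p under 0.01 over all tested genes, the level used in the study. Where every library of a group was at 0, the difference is given as a bound against 3 counts per library. These bounds cover counting error only, as the reads carried no molecular identifiers.

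**Figure D1:**
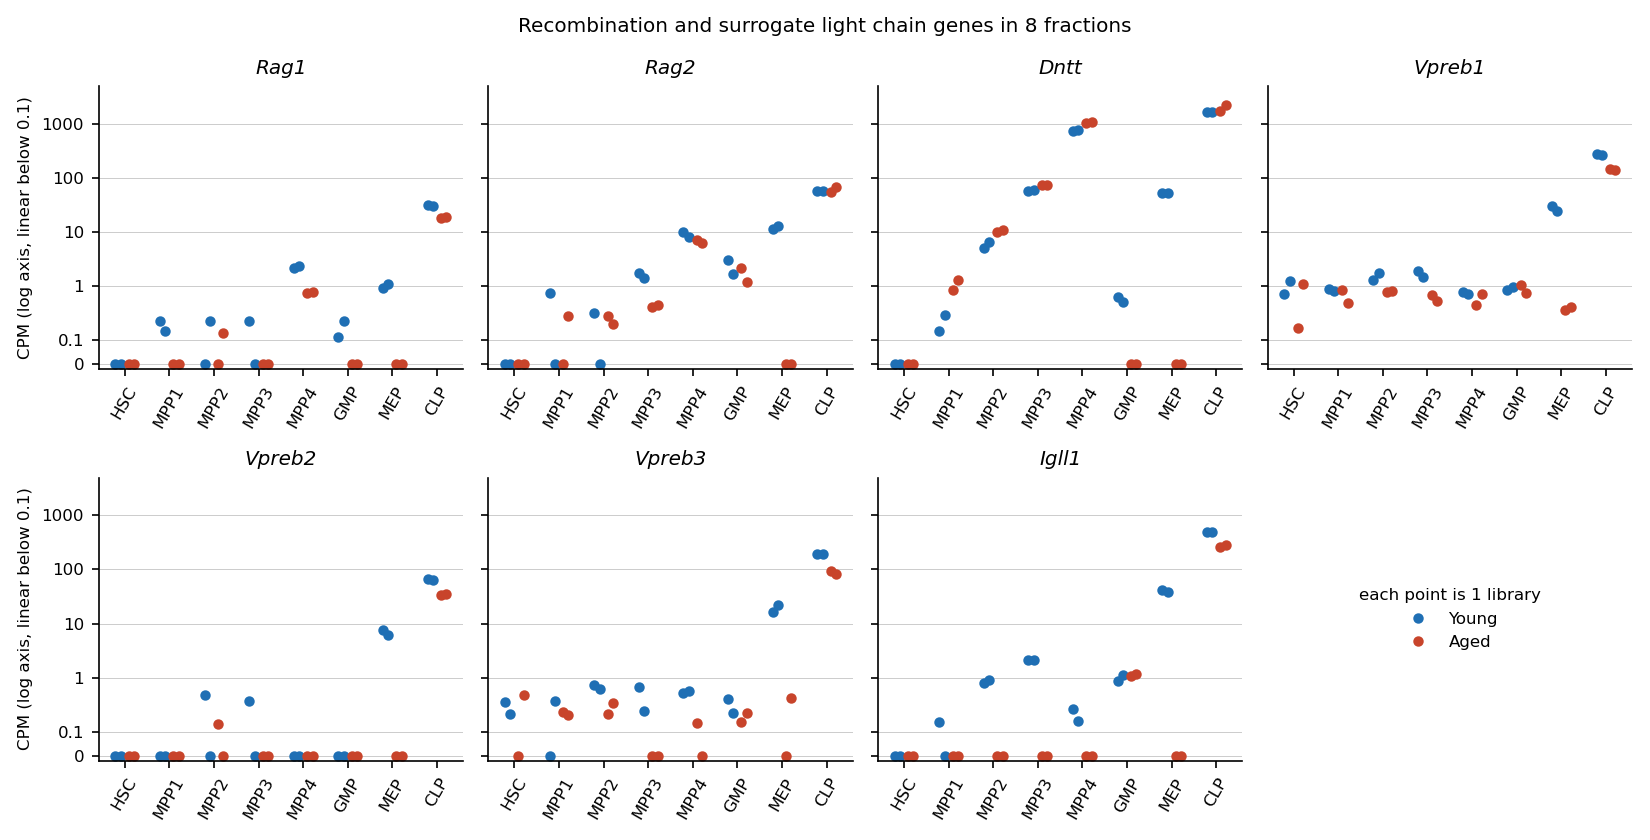
CPM of each gene in each of the 32 libraries (vertical axis, logarithmic above 0.1 and linear below it), by fraction (horizontal axis) and age (colour), 1 point per library. All 7 genes were highest in CLPs, only Dntt passed 100 CPM outside CLPs (in MPP4s), and all 7 had counts in young MEPs, where aged MEPs were at 0 or at most 5 counts.

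CLPs carried the highest level of every gene at both ages. Per kilobase, the order in young CLPs was Dntt (780 CPM per kb), Igll1 (567), Vpreb1 (354), Vpreb3 (306), Vpreb2 (86.1), Rag2 (16.8) and Rag1 (4.65). In aged CLPs the order of the genes was the same, from 928 CPM per kb for Dntt to 2.84 for Rag1. The labelled fraction held its defining transcripts: Il7r, the receptor chain used for the sort, was 151 ± 0.209 CPM in young and 184 ± 1.87 CPM in aged CLPs (SD, n = 2), against 5.44 ± 1.15 CPM in young and 6.06 ± 0.920 CPM in aged MPP4s. Ly6d, a marker of B-biased CLPs, was 1136 ± 6.71 CPM in young and 900 ± 48.5 CPM in aged CLPs.

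The first comparison asked what changed with age within CLPs. Vpreb1, Vpreb3 and Igll1 were lower in aged CLPs, while Vpreb2 and the recombination genes Rag1, Rag2 and Dntt did not pass the test. Of the 7 genes, 3 were called lower and none higher, where 4.73% of all tested genes were called lower and 5.71% higher. In these bulk libraries, fewer cells that express a gene and less RNA per cell cannot be told apart.

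Igll1 had 6252 and 6412 counts in the young CLP libraries and 3707 and 3903 in the aged ones. As CPM, both aged values lay below both young values, as for 31% of all tested genes. Its level was 493 ± 1.40 CPM in young and 272 ± 10.3 CPM in aged CLPs (SD, n = 2), and the log2 fold change was -0.84 (SE 0.10, edgeR adjusted p = 4.51e-05).

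Vpreb1 had 3491 and 3469 counts in young and 2023 and 1990 in aged CLPs, again without overlap. The log2 fold change was -0.90 (SE 0.16, edgeR adjusted p = 3.67e-04). Its near-copy Vpreb2 had 838 and 841 counts in young and 466 and 493 in aged CLPs, a log2 fold change of -0.92 with a larger SE of 0.39 (edgeR adjusted p = 0.138), and was not called. When only the 4 CLP libraries were fitted, the adjusted p of Vpreb2 was 0.00563. With the counts of both genes summed, the log2 fold change was -0.90 (SE 0.16, edgeR adjusted p = 2.83e-04). The number of Vpreb1 counts per Vpreb2 count was 4.12 to 4.17 in young CLPs and 4.04 to 4.34 in aged CLPs, and these ranges overlapped.

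Vpreb3 had 2425 and 2482 counts in young and 1299 and 1149 in aged CLPs. The log2 fold change was -1.11 (SE 0.24, edgeR adjusted p = 0.00278). Its call was lost when any 1 of the 4 CLP libraries was left out, with an adjusted p of 0.0251 to 0.0459.

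Rag1 had 394 and 396 counts in young and 258 and 268 in aged CLPs. The aged values lay below the young values as CPM, as for 31% of all tested genes, and the log2 fold change of -0.69 (SE 0.35, edgeR adjusted p = 0.194) was not called. Rag2, its partner in the recombinase, had 737 and 740 counts in young and 765 and 969 in aged CLPs, which overlapped as CPM (log2 fold change 0.12, SE 0.34, edgeR adjusted p = 0.883). The number of Rag2 counts per Rag1 count was 1.87 in both young CLP libraries and 2.97 and 3.62 in the aged ones. Dntt had 20863 and 21797 counts in young and 24353 and 30981 in aged CLPs, a log2 fold change of 0.27 (SE 0.10, edgeR adjusted p = 0.0644) that was not called. The ratio of Dntt to Igll1 within a library also differed with age, as there were 3.34 and 3.40 Dntt counts per Igll1 count in young CLPs and 6.57 and 7.94 in aged CLPs.

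**Figure D2:**
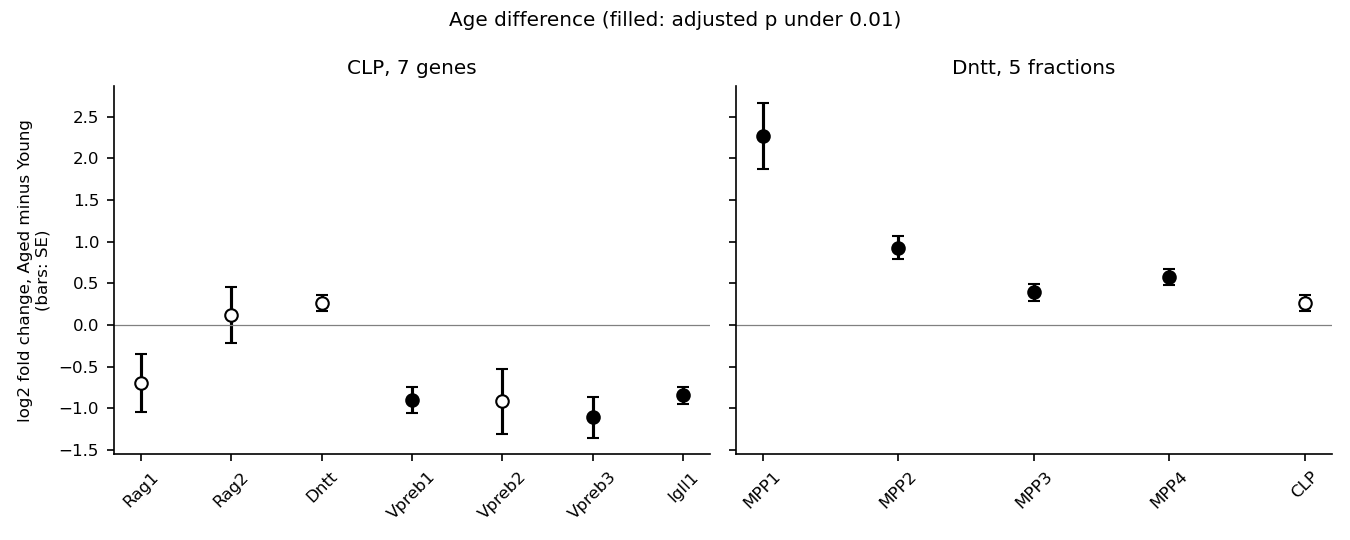
Log2 fold change of Aged against Young (vertical axis, bars are SE) for the 7 genes in CLPs (left) and for Dntt in 5 fractions (right), where filled points have an adjusted p under 0.01. In CLPs Vpreb1, Vpreb3 and Igll1 lie near -1, and Dntt lies above 0 in all 5 fractions, from 0.27 in CLPs to 2.27 in MPP1s.

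The partners of these genes in the pre-B cell receptor and the factors that act on them were followed in lists of known members. Among 12 tested genes for pre-B cell receptor partners and signalling, 4 were called lower and 2 higher in aged CLPs, with a median log2 fold change of -0.09 beside a median of 0 over all tested genes. Those lower included Cd79a (942 to 391 CPM, log2 fold change -1.25) and Cd79b (371 to 169 CPM, -1.12), the signalling chains of the receptor. Pik3ap1, an adaptor for PI3 kinase, and the kinase gene Lyn were higher (0.58 and 0.45). The calls of Pik3ap1 and Lyn were lost with any CLP library but aged CLP replicate 2 left out. Without aged CLP replicate 1 the log2 fold change of Pik3ap1 was 0.27 and that of Lyn 0.24, and Pik3ap1 was also lost with a replicate block (adjusted p = 0.0112). Among 24 transcription factors of early lymphoid genes, 3 were lower and 1 was higher. Ebf1 (116 to 60.4 CPM, log2 fold change -0.92), Foxo1 (165 to 103 CPM, -0.65) and Tcf3 (826 to 605 CPM, -0.43), which act together in the start of the B lineage, were lower, and Irf8 (0.55) was higher. Among 17 genes of end joining and recombination cofactors, 5 were lower and none higher, among them Lig4 (-1.06), the ligase that seals the joints, Hmgb2 (-0.66), a DNA-bending cofactor of the recombinase, and Xrcc5 (-0.66), the Ku80 subunit that binds broken ends. With any 1 CLP library left out, the calls of Cd79a, Cd79b, Foxo1 and Hmgb2 remained and those of Ebf1 and Lig4 were lost, while those of Tcf3, Irf8 and Xrcc5 were lost with 3 of the 4. With no other fraction in the fit, Foxo1, Hmgb2, Tcf3, Irf8, Lig4, Xrcc5, Lyn and Pik3ap1 were not called (adjusted p 0.0121 to 0.0979).

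The make-up of the CLP libraries also moved with age, and its part in the differences above was not tested. Of 14 B cell markers, 6 were lower and none higher, and their summed level was 2728 to 2762 CPM in young and 1441 to 1458 CPM in aged CLPs, with no marker at 0 in either group. Ms4a1, the gene for CD20, was 97.6 CPM in young and 8.36 CPM in aged CLPs, and Pax5, the factor that commits cells to the B lineage, was 7.59 and 3.22 CPM, a difference that was not called (edgeR adjusted p = 0.214). Of 10 plasmacytoid dendritic cell markers, 9 were higher and none lower, and their sum was 2911 to 2951 CPM in young and 5237 to 7369 CPM in aged CLPs. Siglech, a surface receptor of these cells, was 1015 CPM in young and 2463 CPM in aged CLPs. The calls of Ms4a1 and Siglech were lost with 3 of the 4 libraries left out in turn and were not made by DESeq2 (adjusted p = 0.836 and 0.541). Of 9 basophil and mast cell markers, 8 were lower, and their sum was 1755 to 1802 CPM in young and 11.1 to 16.7 CPM in aged CLPs, where 3 of the 9, including the basophil protease gene Prss34 (1236 CPM in young CLPs), were at 0. Of 10 neutrophil and monocyte markers, 8 were lower (sum 2023 to 2062 CPM in young, 832 to 857 CPM in aged). Erythroid markers summed to 2011 to 2064 CPM in young and 280 to 839 CPM in aged CLPs, T cell markers to 241 to 243 CPM and 337 to 343 CPM, and NK and innate lymphoid markers to 169 to 171 CPM and 178 to 200 CPM. Ly6a, the gene for the sort antigen Sca-1, rose from 33.6 to 201 CPM (log2 fold change 2.60), a call that DESeq2 did not make (adjusted p = 0.0252) and that was lost without young CLP replicate 1 (0.0220) or young CLP replicate 2 (0.0189).

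**Figure D3:**
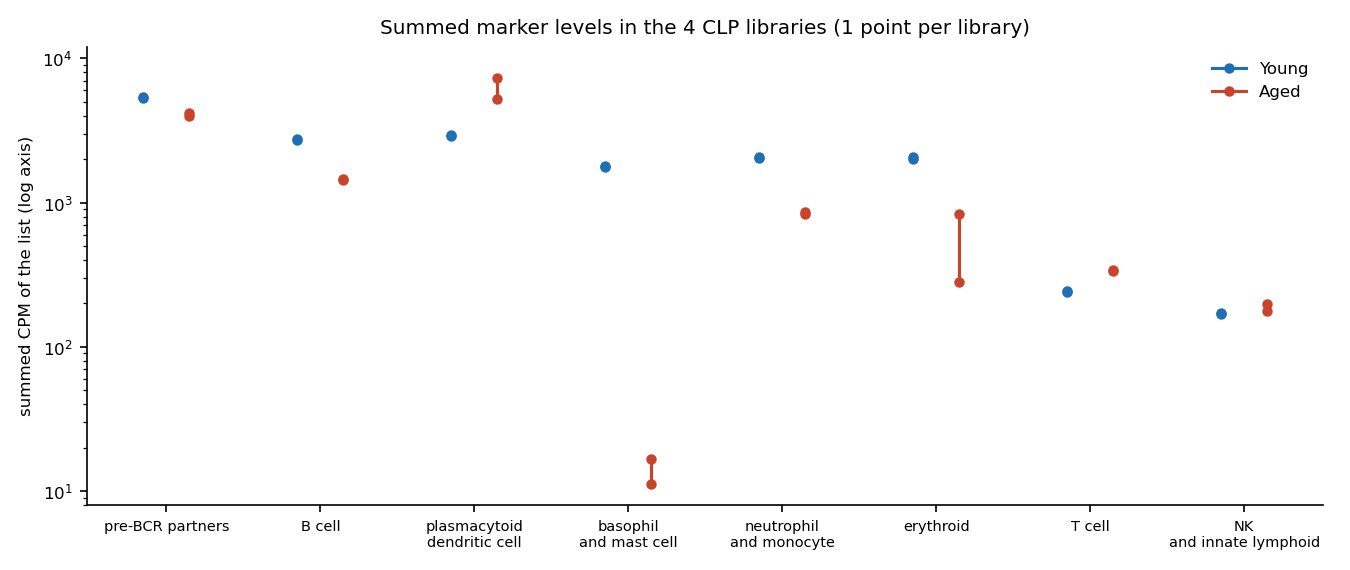
Summed CPM (vertical axis, logarithmic) of 8 lists of genes in the 4 CLP libraries, 1 point per library, with lines joining the duplicates of an age. B cell markers and pre-B cell receptor partners lie lower in aged CLPs, plasmacytoid dendritic cell markers lie higher, and basophil and mast cell markers lie at 11.1 to 16.7 CPM against 1755 to 1802 CPM.

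Ratios to Cd79a in the same library were chosen after the values were seen, and Cd79a fell by more than any of the 7 genes in aged CLPs. That none of the 7 was lower against it was therefore fixed by this choice. There were 0.530 and 0.517 Igll1 counts per Cd79a count in young CLPs and 0.693 and 0.699 in aged CLPs. For Vpreb1 the ratios were 0.296 and 0.279 in young and 0.378 and 0.356 in aged CLPs, and for Vpreb3 0.206 and 0.200 in young and 0.243 and 0.206 in aged. The ratio of Dntt was 1.77 and 1.76 in young and 4.55 and 5.55 in aged CLPs, and that of Rag2 was 0.0625 and 0.0596 in young and 0.143 and 0.173 in aged. These ratios show unequal change, as Cd79a was itself lower.

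Upstream of CLPs, Dntt stood apart from the other 6 genes. It was at 0 counts in all 4 HSC libraries, which allows up to 0.206 to 0.267 CPM, and its level differed widely between the MPP fractions. The paper describes MPP2s as megakaryocyte/erythroid-biased, MPP3s as myeloid-biased and MPP4s as lymphoid-primed. The order below is therefore one of level and not of successive stages. In young mice it was 0.223 ± 0.103 CPM in MPP1s, 5.70 ± 1.03 CPM in MPP2s, 58.7 ± 0.426 CPM in MPP3s, 756 ± 32.1 CPM in MPP4s and 1661 ± 26.5 CPM in CLPs (SD, n = 2). No 2 neighbours in this order overlapped.

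Dntt was higher with age in each of the 4 MPP fractions. It was the only one of the 7 called higher in MPP1s, MPP2s, MPP3s and MPP4s, where 4.71%, 4.49%, 8.14% and 10.3% of tested genes were called higher. In MPP4s, where 1459 genes were called higher of 2347 called in all (1175 of 2260 with DESeq2's size factors), there were 11106 and 9715 counts in young and 14089 and 15071 in aged mice, or 756 ± 32.1 and 1066 ± 30.6 CPM (log2 fold change 0.58, SE 0.10, edgeR adjusted p = 2.26e-04). In MPP3s the counts were 788 and 719 in young and 1081 and 999 in aged mice (log2 fold change 0.40, SE 0.10, edgeR adjusted p = 0.00880). The groups did not overlap as CPM (25.8% of tested genes were higher without overlap). The call in MPP3s was lost with any 1 of the 4 libraries left out (log2 fold change 0.41 to 0.44). It was also lost with DESeq2's size factors (edgeR adjusted p = 0.0167), without the filter on low counts (0.0143) and when only the MPP3 libraries were fitted (0.0102).

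In MPP2s Dntt had 62 and 85 counts in young and 143 and 162 in aged mice (log2 fold change 0.93, SE 0.14, edgeR adjusted p = 2.41e-04). In MPP1s it had only 2 and 4 counts in young and 11 and 19 in aged mice (2.27, SE 0.40, adjusted p = 9.97e-04 by edgeR). Without young MPP1 replicate 1 the adjusted p in MPP1s was 0.0595, and without aged MPP1 replicate 2 it was 0.0627. The change in MPP1s was the largest on the log2 scale but rested on the fewest counts, and its difference from the change in MPP4s did not pass the test (-1.69, SE 0.42, unadjusted p = 0.00242, edgeR adjusted p = 0.152). That test called 0 of the 7 genes and 0.24% of all tested genes, and of the 7 genes Dntt alone had an unadjusted p under 0.05. DESeq2 also called 0 of 7.

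The recombinase genes reached lower levels in MPP4s. Rag1 had 33 and 30 counts in young and 10 and 11 in aged MPP4s, or 2.29 ± 0.160 and 0.768 ± 0.0372 CPM. Both aged values were below both young values (41% of tested genes were lower without overlap), and the log2 fold change of -1.48 (SE 0.49, edgeR adjusted p = 0.0365) was not called, while DESeq2 called it (adjusted p = 0.00895). Rag2 had 152 and 100 counts in young and 97 and 88 in aged MPP4s (log2 fold change -0.33, SE 0.39, edgeR adjusted p = 0.589). Dntt and Rag1 diverged with age in this fraction, with 337 and 324 Dntt counts per Rag1 count in young and 1409 and 1370 in aged MPP4s.

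The surrogate light chain genes had few counts in MPP4s. Vpreb2 was at 0 in all 4 MPP4 libraries, Igll1 had 4 and 2 counts in young and 0 in aged MPP4s, Vpreb3 had 8 and 7 in young and 2 and 0 in aged, and Vpreb1 had 12 and 9 in young and 6 and 10 in aged. Vpreb1 had 2 to 26 counts per library in the fractions other than CLP and MEP. None of these 4 genes was called with age in MPP4s.

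Among the early fractions, Igll1 was called with age in MPP3s and MPP2s. It had 28 and 26 counts in young MPP3s and 10 and 12 in young MPP2s, against 0 in all aged libraries of both. By edgeR it was the only one of the 7 called lower there, where 5.79% of tested genes were called lower in MPP3s and 3.31% in MPP2s. Against 3 counts per library, the level was at least 9.75-fold lower in aged MPP3s and at least 4.13-fold lower in aged MPP2s (edgeR adjusted p = 2.19e-06 and 1.57e-04). In young mice Igll1 was lower in MPP4s than in MPP3s (log2 fold change -3.22, SE 0.35, edgeR adjusted p = 2.14e-05), where 3.6% of tested genes were called lower. In GMPs Igll1 had 15 and 20 counts in young and 14 and 16 in aged mice (log2 fold change 0.12, SE 0.27) and was not called. Vpreb1 in MPP3s had 26 and 18 counts in young and 10 and 7 in aged mice (log2 fold change -1.43, SE 0.42, edgeR adjusted p = 0.0159) and was not called, but was called with the counts of Vpreb2 added (-1.58, adjusted p = 0.00743) and by DESeq2 (adjusted p = 0.00523). Rag2 in MPP3s had 24 and 17 counts in young and 6 in each aged library (log2 fold change -1.82, SE 0.69, edgeR adjusted p = 0.0643) and was called by DESeq2 alone (adjusted p = 0.00590). Cd79a fell in the same libraries, from 32 and 36 counts to 4 and 5, and neutrophil and monocyte markers, 6 of 10 of them called lower, summed to 4947 to 5136 CPM in young and 2509 to 2528 CPM in aged MPP3s. Erythroid markers, 5 of 10 called lower and 1 higher, summed to 1614 to 1706 CPM in young and 379 to 417 CPM in aged MPP3s. NK and innate lymphoid markers summed to 260 to 281 CPM in young and 316 CPM in aged MPP3s. In MPP2s erythroid markers summed to 1458 to 1595 CPM in young and 397 to 413 CPM in aged mice. The part of these in the differences was not tested.

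In MPP4s, the other genes of the pathway moved in both directions, beside 10.3% of all tested genes called higher and 6.27% called lower. Among the 17 end joining and recombination cofactors, 3 were higher and none lower in aged MPP4s: H2afx (log2 fold change 0.49), Hmgb1 (0.35) and Mre11a (0.33). The calls of Hmgb1 and Mre11a were lost with any 1 of the 4 libraries left out and with DESeq2's size factors (adjusted p 0.0154 and 0.0149). Among the 24 transcription factors, Sox4 (-0.65), Foxp1 (-0.39) and Mef2c (-0.36) were lower and Irf8 (0.51) was higher. Among 16 early lymphoid progenitor markers, 4 were lower, with the chemokine receptor gene Ccr9 (-1.52), Lax1 (-1.09) and Cnn3 (-0.81) the largest, and 2, among them Jak3 (0.34), were higher. Among the 12 pre-B cell receptor partners, Pik3ap1 (-0.57) and Syk (-0.39) were lower and Ccnd3 (0.35) was higher. Of these named genes, the calls of Sox4, Lax1 and Cnn3 remained with any 1 of the 4 MPP4 libraries left out, and each of the others was lost with at least 1 of them left out. The call of Jak3 was also lost with DESeq2's size factors (edgeR adjusted p = 0.0157). With no other fraction in the fit, H2afx, Hmgb1, Mre11a, Syk, Ccnd3, Foxp1, Mef2c and Jak3 were not called (edgeR adjusted p 0.01004 to 0.0264).

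The next comparison was the step from MPP4 to CLP. All 7 genes were higher in CLPs than in MPP4s at both ages, where 21.3% of tested genes were called higher in young and 18.9% in aged mice. Among the genes with counts in MPP4s the smallest difference was that of Dntt, with log2 fold changes of 1.29 (SE 0.10) in young and 0.97 (SE 0.10) in aged mice. Rag2 rose by 2.82 (SE 0.38) and 3.27 (SE 0.39), and Rag1 by 3.90 (SE 0.41) and 4.68 (SE 0.46). Vpreb1 was higher by 8.61 (SE 0.26) in young and 8.00 (SE 0.27) in aged mice. Against the floor of 3 counts, Vpreb2 was at least 298-fold higher in young and at least 156-fold higher in aged CLPs, and Igll1 at least 1239-fold higher in aged CLPs. The adjusted p-values of all 7 genes were at most 4.54e-06 in edgeR, while DESeq2 did not call Vpreb2 (adjusted p = 0.202 in young and 0.251 in aged mice).

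Whether the age effect differed between CLPs and MPP4s was tested directly. The test called 0 of the 7 genes by edgeR and by DESeq2, where 17.7% of all tested genes were called, and 2 of the 7, Dntt and Igll1, had an unadjusted p under 0.05. For Dntt the difference was -0.32 (SE 0.14, unadjusted p = 0.0321, edgeR adjusted p = 0.0968), and it was called when aged CLP replicate 2 was left out (-0.49, adjusted p = 0.00906). For Rag1 it was 0.78 (SE 0.60, edgeR adjusted p = 0.386) and for Rag2 0.45 (SE 0.51, edgeR adjusted p = 0.594). The 4 genes of the VpreB and lambda5 kind had too few counts in MPP4s for the difference to be read.

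From MPP1 to MPP4, Rag1, Rag2 and Dntt were higher and the other 4 were not called, at both ages, where 6.63% of tested genes were called higher in young and 10.5% in aged mice (1480 of 2757 called in aged mice, and 1112 of 2566 with DESeq2's size factors). Dntt was higher by 11.72 (SE 0.19) in young and 10.03 (SE 0.16) in aged mice on the log2 scale. From MPP3 to MPP4 the same 3 genes were called higher at both ages, with 2.18% of tested genes called higher in young and 1.93% in aged mice. There Dntt was higher by 3.69 (SE 0.11) in young and 3.88 (SE 0.11) in aged mice, and Rag2 by 2.50 (SE 0.46) and 3.99 (SE 0.57). These calls of Dntt held with any 1 library left out. That of Rag2 against young MPP3s was lost without young MPP3 replicate 1 or 2 or young MPP4 replicate 1 (adjusted p 0.0142 to 0.0266), and that of Rag1 against aged MPP3s with any 1 of the 4 libraries left out (0.0233 to 0.0473). The call of Rag1 against young MPP3s was lost without young MPP3 replicate 2 (0.0117), that against young MPP1s without young MPP1 replicate 2 (0.0131), and that against aged MPP1s without aged MPP1 replicate 1 or 2 (0.0134 and 0.0174).

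In HSCs Rag1, Rag2, Dntt, Vpreb2 and Igll1 were at 0 counts in all 4 libraries. B230118H07Rik, whose span covers both Rag genes, had 289 to 460 counts in the same libraries. Vpreb1 had 2 to 18 counts and Vpreb3 0 to 7. The edgeR test called 0 of the 7 genes between ages in HSCs, with none at an unadjusted p under 0.05 and 0 called by DESeq2, where 5.4% of all tested genes were called.

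MEPs gave the widest difference between ages. All 7 genes had counts in both young MEP libraries, and 5 of them were at 0 in both aged MEP libraries. All 7 were called lower in aged MEPs, where 11.7% of tested genes were called lower. Dntt had 864 and 773 counts in young MEPs and was at least 206-fold lower in aged MEPs (edgeR adjusted p = 1.75e-14). Igll1 had 689 and 559 counts and was at least 157-fold lower, Rag2 had 187 and 190 and was at least 47.6-fold lower, Vpreb2 had 126 and 91 and was at least 27.1-fold lower, and Rag1 had 15 and 16 and was at least 3.92-fold lower. The call of Rag1 was lost without aged MEP replicate 2 (adjusted p = 0.0118), and DESeq2 did not call Vpreb2 (adjusted p = 0.447). Vpreb1 had 505 and 362 counts in young and 4 and 5 in aged MEPs (log2 fold change -6.14, SE 0.31, edgeR adjusted p = 4.27e-12). Vpreb3 had 269 and 322 counts in young and 0 and 5 in aged MEPs (-6.43, SE 0.51, edgeR adjusted p = 6.88e-09).

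These levels were a share of those in young CLPs that differed between the genes. The mean CPM of young MEPs was 10.3% of that of young CLPs for Vpreb1, 10.7% for Vpreb2, 10.1% for Vpreb3 and 8.17% for Igll1. It was 3.19% for Dntt and 3.28% for Rag1, but 21.3% for Rag2. There were 12.5 and 11.9 Rag2 counts per Rag1 count in young MEPs, against 1.87 in young CLPs, while the 4.01 and 3.98 Vpreb1 counts per Vpreb2 count were close to the 4.12 to 4.17 of CLPs.

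Markers of the B lineage were present in the same young MEP libraries, and their part in the result was not tested. The summed level of 14 B cell markers was 175 to 176 CPM in young and 28.5 to 30.6 CPM in aged MEPs, with 3 of the 14 at 0 in young and 9 at 0 in aged MEPs, and 6 of 14 were called lower. Cd79a was 53.1 CPM and Ebf1 12.3 CPM in young MEPs, and both were at 0 in both aged libraries. Pou2af1, a coactivator of B cell genes, was 26.4 CPM and Lef1, a factor of lymphoid progenitors, was 30.3 CPM in young MEPs, against 0.0890 and 0.0825 CPM. Il7r was 12.8 CPM in young and 0.295 CPM in aged MEPs, although antibodies to IL-7R and B220 were part of the lineage mixture that excluded cells from this sort. The markers were at unequal shares of the young CLP level. Among B cell markers, Cd22, Cr2 and Bank1 were at 0, Blk at 0.0575%, Ms4a1 at 0.658% and Fcrla at 0.787%. Cd79a was at 5.63%, Pou2af1 at 10.3% and Cd37 at 11.8%. Among early lymphoid progenitor markers, Ly6d was at 0.352% and Flt3 at 0.325%, but Cnn3 at 23.1%, Jak3 at 24.7% and Il2rg at 29.7%. Among plasmacytoid dendritic cell markers, Siglech was at 0.0753%, but Lair1 at 6.70%, Tcf4 at 7.92%, Bst2 at 9.08% and Smim5 at 33.4%. The erythroid markers that define the fraction summed to 6751 to 6915 CPM in young and 6873 to 7011 CPM in aged MEPs. Plasmacytoid dendritic cell markers summed to 119 to 120 CPM and 146 to 153 CPM, and plasma cell markers to 166 to 167 CPM and 96.9 to 115 CPM. Neutrophil and monocyte markers, of which 6 of 10 were called lower, summed to 262 to 290 CPM in young and 31.7 to 120 CPM in aged MEPs, T cell markers to 15.4 to 20.3 CPM and 5.43 to 7.01 CPM, and NK and innate lymphoid markers to 146 to 154 CPM and 86.7 to 90.6 CPM.

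**Figure D4:**
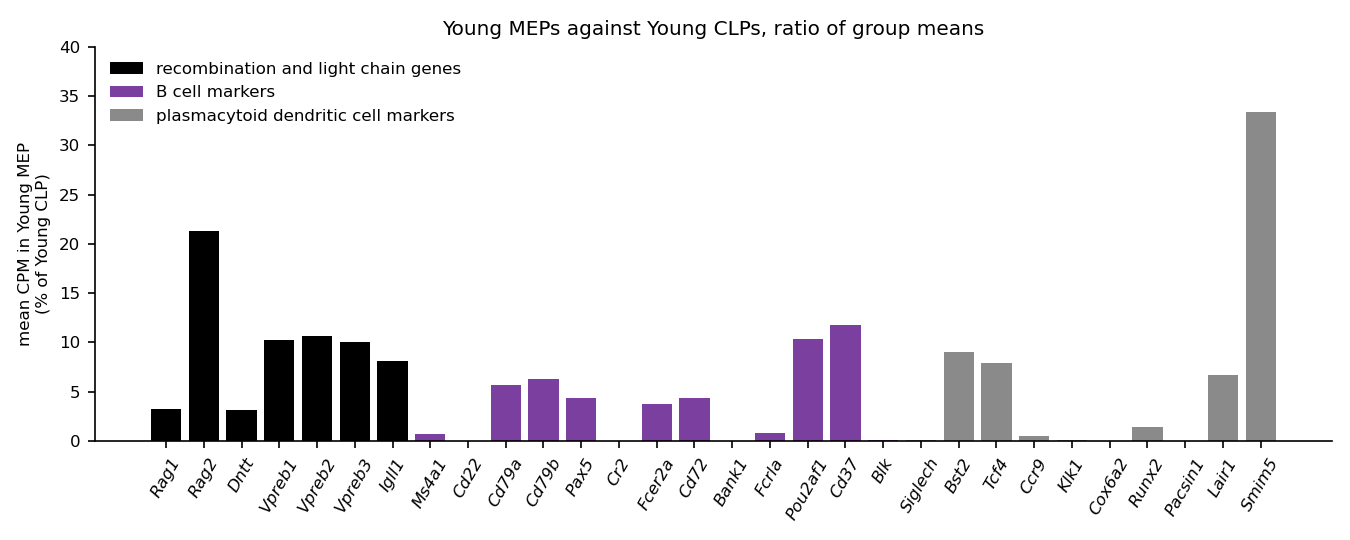
Mean CPM in young MEPs as a percentage of the mean in young CLPs (vertical axis; 2 libraries per group) for the 7 genes, 13 of the B cell markers and 10 plasmacytoid dendritic cell markers. The surrogate light chain genes and Vpreb3 lie at 8.17% to 10.7%, Rag2 at 21.3%, Dntt and Rag1 near 3%, and the plasmacytoid dendritic cell markers spread up to 33.4% for Smim5, with Siglech at 0.0753%. The B cell markers spread from 0 for Cd22, Cr2 and Bank1 to 11.8% for Cd37.

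The lists of lymphoid genes held more lower than higher calls in aged MEPs, where 11.7% of all tested genes were called lower and 9.08% higher. Of 12 pre-B cell receptor partners, 9 were lower in aged MEPs and none higher, with Cd79a and Pik3ap1 among those at 0 in both aged libraries. Of 24 transcription factors, 15 were lower and 1, Tcf3 (log2 fold change 0.71), was higher. Of the 17 end joining and recombination cofactors, which cells of every lineage use, only Atm (-0.73) was lower and none was higher, and that call was lost with 3 of the 4 MEP libraries left out in turn. Of 16 early lymphoid progenitor markers, 10 were lower and none higher, with Ly6d (4.00 CPM), Ccr7 (2.23 CPM) and Flt3 (1.90 CPM) in young MEPs all at 0 in aged MEPs.

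In GMPs, Rag2 had 54 and 30 counts in young and 28 and 16 in aged mice (log2 fold change -0.59, SE 0.50, edgeR adjusted p = 0.422), while Rag1 had 2 and 4 counts in young GMPs and was at 0 in aged ones. Dntt had 11 and 9 counts in young GMPs and no count in either aged library, and was at least 2.53-fold lower (edgeR adjusted p = 8.06e-05), the only one of the 7 called, where 8.97% of tested genes were called lower.

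Over the 16 group means of log2 CPM, Dntt was least like the other genes. Pearson's r was 0.993 between Vpreb1 and Vpreb2, 0.989 between Vpreb1 and Vpreb3 and 0.973 between Vpreb1 and Igll1. It was 0.897 between Rag1 and Rag2, 0.832 to 0.883 between Rag1 and the other 4 genes without Dntt, and 0.768 to 0.824 between Rag2 and those 4. For Dntt it was 0.781 with Rag1, 0.803 with Rag2 and 0.557 to 0.604 with the 4. Among the tested genes most like Vpreb1 were 5730488B01Rik (r = 0.987), Sit1 (0.985), Chst3 (0.984) and Bst1 (0.983), and Sit1 and 5730488B01Rik were also among the 5 most like Vpreb2 and Vpreb3. Among those most like Igll1 were Akap12 (0.967), Ebf1 (0.955), Cd79a (0.948) and Chst3 (0.943). Dntt had a different set, namely Ccr7 (0.945), Icos (0.940), Dscam (0.924), Emp1 (0.916) and Nsg2 (0.897). Rag1 was most like Lta (0.963), Zap70 (0.963), Ctnnd2 (0.961), A430088P11Rik (0.960) and Tnni1 (0.956), and Rag2 most like Drc7 (0.969), Tmem108 (0.957), Kmo (0.933), Slamf6 (0.933) and Edaradd (0.917). These are descriptions over 16 points that share the 2 CLP groups and the young MEPs as their extremes.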

How the data were processed

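RNA from 8 fractions of pooled young or aged marrow, sorted in duplicate, was amplified with a SMARTer low-input kit and read as single reads of 60 bases. Per the paper's methods the authors aligned with TopHat2 2.0.13 and Bowtie2 2.1.0 to mm10 and made raw counts per gene with StringTie, and the deposited counts were used here as whole numbers with no normalization. Use of strand was not stated, so genes that overlap (Rag1 and Rag2 with B230118H07Rik, Vpreb1 with Top3b and Vpreb3 with Gm16221) may share reads. The tables of the authors' own comparisons hold fold changes, p-values and normalized values and were not used.

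Genes were filtered by filterByExpr, scaled by TMM and fitted in edgeR 4.0.16 (R 4.3.3, limma 3.58.1) with 1 mean per group over 32 libraries. Each of 16 contrasts was tested by the two-sided quasi-likelihood F-test with Benjamini-Hochberg adjustment over 14154 genes, and the SE is the absolute log2 fold change over the square root of F. The procedure was tested on simulated data. Depth was 11237384 to 17723245 counts per library, at which 3 counts stand for 0.169 to 0.267 CPM.

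Named genes were the 7 members, up to 3 genes per list and direction with the largest change among those called, up to 3 of the highest CPM for other cell types, sort antigens, and the 5 genes with the highest correlation. The members and lists were chosen with earlier results of these data known. Pax5, Pou2af1 and the ratios to Cd79a were named after their values were seen. Alternatives were DESeq2 1.42.0, DESeq2 size factors, no filter, a replicate block, only the libraries compared, Vpreb1 and Vpreb2 summed, other thresholds, leaving out each library and, chosen after seeing the data, leaving out both young MEP libraries. Duplicates differed by more than counting noise in every group and all were kept. Some genes that this rule names are not reported here.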

Additional observations from a re-analysis of the deposited data

How the results depend on the processing

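The number of the 7 genes called was within 1.5 times of that reported for every comparison and alternative run, other than those given here. With age in MPP1s it was 0 with the MPP1 libraries fitted by themselves. In MPP2s it was 1 with a minimum absolute log2 fold change of 1. In MPP3s it was 5 with DESeq2, 1 with DESeq2's size factors, without the filter or with the MPP3 libraries fitted by themselves, 4 at an adjusted p under 0.05, and 1 with the minimum fold change. In MPP4s it was 2 with DESeq2, 3 at an adjusted p under 0.05 and 0 with the minimum fold change. In GMPs it was 0 with the GMP libraries fitted by themselves, and in CLPs 1 with the minimum fold change. With single libraries left out the number was 0 to 1 in MPP1s, 1 in MPP3s, 2 in CLPs, 6 to 7 in MEPs, 2 to 4 for young MPP4s against MPP3s and 0 to 1 for the difference between CLPs and MPP4s. The log2 fold change of Rag2 in CLPs ranged from -0.043 (aged CLP replicate 2 left out) to 0.26 (replicate 1 left out), and it was the only listed difference of the 7 genes to change sign. The cause of these changes was not tested.

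DESeq2 set the dispersion of Vpreb2 to 32, its upper limit, against 0.0133 for Vpreb1. Leaving out both young MEP libraries, an alternative chosen after seeing the data, changed no call of the 7 genes in the other comparisons. Same-numbered libraries of the 2 ages did not deviate together (correlations of -0.0557 to 0.0704), so they share only a number. With a replicate block, no call of the 7 genes changed and the number of genes called with age in CLPs was 1504 in place of 1478. Of the calls of the 7 genes with age that were lost with a single library left out, those of Dntt in MPP1s and Rag1 in MEPs rested on at most 19 counts per library, and those of Dntt in MPP3s and Vpreb3 in CLPs on at least 719.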
